A study of Mus musculus with 12 samples.

Results

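The genes described here are 10 antioxidant and NRF2 target genes, Hmox1, Nqo1, Gclc, Gclm, Gsr, Txnrd1, Srxn1, Prdx1, Gsta4 and Sod2. They were followed on every probe set that the array annotation pairs with exactly 1 of these symbols. That gave 18 probe sets for 9 of the 10 genes, among 12393 genes with such a probe set. Prdx1, which encodes a peroxiredoxin, is paired with a second symbol, Gm21399, on each of its 5 probe sets, and no value is given for it.

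RNA was measured on Affymetrix arrays in PPARγ knockout mouse embryonic fibroblasts. PPARγ is the nuclear receptor that drives fat cell formation, and a form of it had been put back into these cells. All cells were grown in DMEM with 10% serum and differentiated for 6 days, and each group had 3 arrays. The groups were cells with S273A PPARγ and no ligand (S273A), cells with wild-type PPARγ given 1 µM rosiglitazone for 24 h, cells with wild-type PPARγ given 1 µM MRL24 for 24 h, and cells with wild-type PPARγ and no ligand (wt). S273A removes a phosphorylated serine of the receptor, and rosiglitazone and MRL24 are ligands of the receptor. The sample titles say only that the receptor was mutant, and the series text names S273A. Each receptor form was introduced into 1 set of cells as far as the labels say, so the substitution and the cell population that carries it cannot be told apart. The labels name no vehicle for wt cells and no separate cultures, so p-values rest on a spread between arrays that may be technical.

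NRF2 (gene Nfe2l2) is a transcription factor that KEAP1 holds in the cytoplasm and hands over to degradation. Oxidants and electrophiles modify KEAP1, NRF2 then accumulates, pairs with a small MAF protein and binds antioxidant response elements, which BACH1 occupies as a repressor. Its targets make and recycle glutathione (Gclc, Gclm, Gsr), conjugate it (Gsta4), reduce thioredoxin and peroxiredoxins (Txnrd1, Srxn1), reduce quinones (Nqo1) and break down heme (Hmox1). Sod2, the mitochondrial superoxide dismutase, is better known as a target of NF-κB and FOXO factors. Fat cells produce reactive oxygen species as they store lipid.

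Array medians lay between 297 and 315 intensity units. The array wt replicate 2 stood apart from the other 11, at -17.17 on a principal component that held 24.3% of the variance, against -5.91 to 8.24 for the others. The labels name embryonic fibroblasts, and 11 fibroblast markers summed to 101056 to 110959 units in wt cells. Of 10 adipocyte markers on the array, 7 were measured: Fabp4, Lpl, Cd36, Retn, Cebpa, Pparg and Slc2a4. The means of Adipoq, Cidec and Lep over the 12 arrays were below the intensity minimum of 101. Adipoq averaged 139 units with rosiglitazone and 68.0 with MRL24, against 53.5 in wt cells, and the highest array of Cidec reached 119. Summed over the 10 adipocyte markers on the array, intensity was 31938 to 32298 with rosiglitazone and 19936 to 20081 with MRL24, against 12671 to 14582 in wt. In S273A cells that sum was 13736 to 14861. Most of each sum was Fabp4, which averaged 25153 units with rosiglitazone, 15339 with MRL24, 9701 in S273A and 9509 in wt cells. By limma, rosiglitazone raised 3 of the 7 measured markers (Fabp4, Lpl and Cd36), and 4 were not called. Of those 4, Pparg had a lower mean with rosiglitazone than in wt cells (834 against 904). MRL24 raised 4 of the 7 markers (Fabp4, Lpl, Cd36 and Slc2a4). S273A raised 1, Cd36, by a log2 change of 0.82 (adjusted p = 1.7e-05 by limma). The changes were positive for 7 of the 7 with S273A and for 6 with either ligand. Of all genes, rosiglitazone called 7.9%, MRL24 5.51% and S273A 7.14%. Whole populations were measured, so fewer cells of a type and less RNA per cell cannot be told apart.

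The 250 bases before the transcription start are given for 4 genes, 3 members and Mafg. They were chosen because their windows carry one of the searched motifs, and binding of a factor was not measured. The Nfe2l2 window also has a match, which begins 240 bases before the start and is not printed. The windows come from RefSeq on the build GRCm38.p6. Capitals mark matches, on either strand, to the core of the antioxidant response element, TGACNNNGC, or to the AP-1 site TGAGTCA, a related motif whose letters can overlap it.
Srxn1, chr2:152105274-152105523, plus strand, with the AP-1 letters beginning 102 and 45 bases before the start: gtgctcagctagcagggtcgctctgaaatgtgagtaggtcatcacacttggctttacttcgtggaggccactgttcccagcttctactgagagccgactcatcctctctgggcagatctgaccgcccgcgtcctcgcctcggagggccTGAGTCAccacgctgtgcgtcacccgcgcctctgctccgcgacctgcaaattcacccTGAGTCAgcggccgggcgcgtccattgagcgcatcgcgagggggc
Gclm, chr3:122245307-122245556, plus strand, with the response element letters beginning 134 bases before the start: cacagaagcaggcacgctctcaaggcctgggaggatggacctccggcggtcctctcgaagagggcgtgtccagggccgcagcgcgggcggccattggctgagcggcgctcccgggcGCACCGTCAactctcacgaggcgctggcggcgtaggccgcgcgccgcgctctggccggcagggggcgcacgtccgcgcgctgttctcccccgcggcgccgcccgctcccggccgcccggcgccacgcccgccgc
Txnrd1, chr10:82858956-82859205, plus strand, 1 of its 3 starts, with the response element letters beginning 92 bases before it: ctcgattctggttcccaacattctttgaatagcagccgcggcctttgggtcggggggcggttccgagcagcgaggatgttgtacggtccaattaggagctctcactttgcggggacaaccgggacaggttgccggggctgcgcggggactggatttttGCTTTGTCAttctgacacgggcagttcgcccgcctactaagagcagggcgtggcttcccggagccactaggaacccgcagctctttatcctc
Mafg, chr11:120633548-120633797, minus strand, with the response element letters beginning 222 bases before the start: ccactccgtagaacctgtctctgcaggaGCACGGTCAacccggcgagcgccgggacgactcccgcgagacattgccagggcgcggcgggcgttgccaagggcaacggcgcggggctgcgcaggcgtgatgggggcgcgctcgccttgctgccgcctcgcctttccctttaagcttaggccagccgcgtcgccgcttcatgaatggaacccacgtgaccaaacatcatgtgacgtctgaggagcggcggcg

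Windows were found for 6 of the 10 genes (Gclm, Nqo1, Prdx1, Sod2, Srxn1 and Txnrd1), 8 windows in all. TGACNNNGC was in 3 of the 8, those of Gclm, Prdx1 and 1 start of Txnrd1, and in 10.2% of 32851 windows of the table. TGAGTCA was in 2 of the 8, those of Prdx1 and Srxn1, and in 4.46% of all windows. A match is only a description of these letters.

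In each comparison with wt at most 1 of the 9 measured antioxidant genes passed the test, and the genes that passed differed between comparisons. Hmox1 was the 1 gene called with S273A and Gsr the 1 called with MRL24, both higher. No member gene was called with rosiglitazone, although single probe sets of Gclc and Srxn1 were. Called means an adjusted p under 0.05 (Benjamini-Hochberg) in a limma fit over 9154 genes on the scale log2(intensity + 16), where the brightest probe set stands for a gene. All 18 member probe sets passed the intensity filter.

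**Figure D1:**
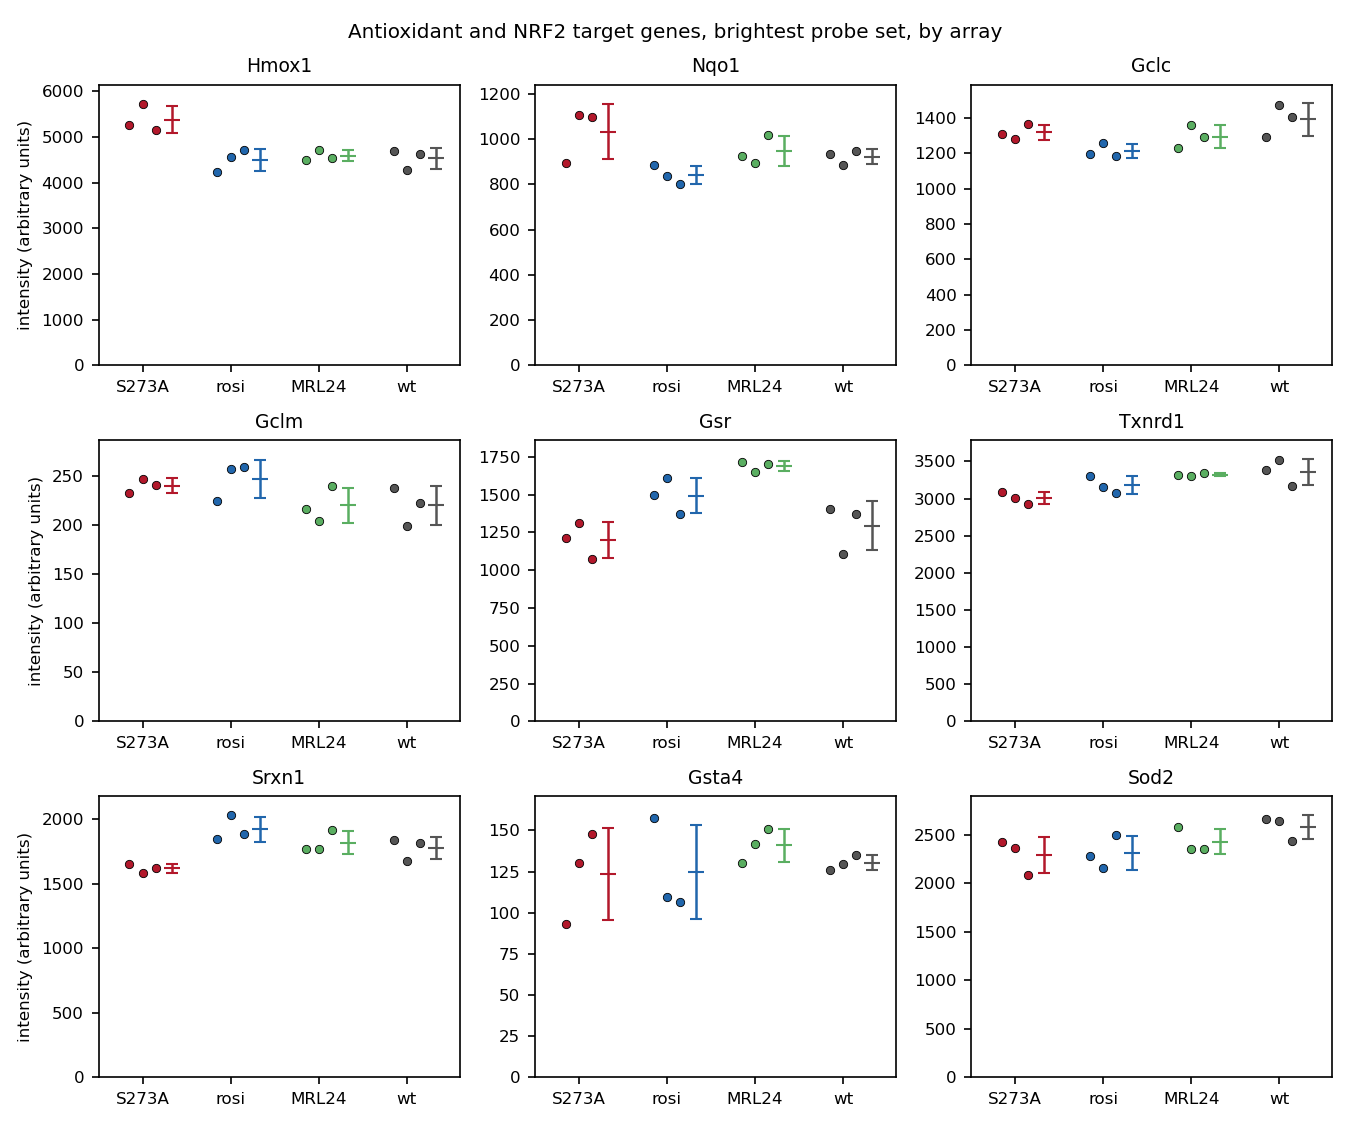
Intensity (arbitrary units, axis from 0) of the brightest probe set of each of the 9 genes on the 12 arrays. Points are arrays and bars are mean ± SD of 3 arrays for S273A, rosiglitazone (rosi), MRL24 and wt cells; the S273A points of Hmox1 and the MRL24 points of Gsr lie above all 3 wt points.

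Heme oxygenase 1, the product of Hmox1, opens the heme ring and releases biliverdin, carbon monoxide and iron. Hmox1 had 5256.2, 5721.0 and 5156.5 intensity units in S273A cells, against 4695.5, 4271.9 and 4620.4 in wt cells. All S273A arrays were above all wt arrays, and the means were 5378 ± 301 and 4529 ± 226 (SD, n = 3 each). Hmox1 rose with S273A by a log2 change of 0.25 (SE 0.05, 95% interval 0.13 to 0.36, adjusted p = 0.0092 by limma). With the S273A and wt arrays fitted alone the adjusted p was 0.0523, and without S273A replicate 2 the change was 0.20 with an adjusted p of 0.0529. Hmox1 kept its call in the other 21 of 23 alternatives.

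With either ligand, the Hmox1 arrays overlapped those of wt cells. It had 4224.4, 4547.9 and 4702.5 units with rosiglitazone, a log2 change of -0.01 (95% interval -0.12 to 0.10). With MRL24 it had 4501.1, 4721.6 and 4543.4 units, a change of 0.02 (95% interval -0.09 to 0.13). Hmox1 is also strongly expressed in macrophages, so their markers are given beside it. The summed intensity of the 12 macrophage markers on the array was 4048 to 4234 in S273A cells and 3372 to 3828 in wt cells. Cd68, a lysosomal protein, was the 1 called of the 5 above the minimum, at 870 ± 11.4 units in S273A cells and 556 ± 37.0 in wt cells, while Ptprc, Itgam, Lyz2, Mpeg1, C1qa, C1qb and Fcgr1 were below the minimum on every array. Of 10 fibroblast markers, 7 fell with S273A, where 7.14% of all genes were called. The part of either marker group in the Hmox1 result was not tested.

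Nqo1 encodes a quinone reductase and is a commonly used readout of NRF2. It had 894.4, 1107.2 and 1098.9 units in S273A cells, against 934.4, 885.0 and 948.2 in wt cells, and 1 of the S273A arrays lay within the wt range. The log2 change of 0.16 (95% interval -0.02 to 0.33) had an adjusted p of 0.287. With rosiglitazone Nqo1 had 884.5, 837.6 and 802.8 units, all just below the lowest wt array, and with MRL24 it had 928.1, 896.1 and 1020.3. Neither ligand's change was called, at -0.13 (adjusted p = 0.358) with rosiglitazone and 0.04 (adjusted p = 0.816) with MRL24. Nqo1 was not called in any comparison. Over 23 alternatives its S273A change was 0.10 to 0.25, with a lowest adjusted p of 0.0504 by limma.

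Gclc and Gclm encode the catalytic and the modifier subunit of glutamate-cysteine ligase, the rate-limiting enzyme of glutathione synthesis. Gclc had lower means with rosiglitazone on both of its probe sets. On the dimmer set, 1424296_at, intensity was 1036.3, 1086.9 and 940.9 with rosiglitazone, against 1350.9, 1432.5 and 1246.7 in wt cells. The groups did not overlap, and the log2 change of -0.39 (SE 0.07, adjusted p = 0.0023 over 15838 probe sets) kept its call in 22 of 22 alternatives. The brighter set, 1455959_s_at, which stands for the gene, had 1196.2, 1259.8 and 1183.8 units with rosiglitazone and 1293.8, 1475.7 and 1405.5 in wt cells. It also separated the groups, by a smaller change of -0.19, with an adjusted p of 0.0629. With the mean of both sets the change of Gclc was -0.29 with an adjusted p of 0.0041, and without wt replicate 1 the brighter set gave -0.24 (adjusted p = 0.0286), so the call for this gene turned on the probe set and arrays used.

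With MRL24 the Gclc probe set 1424296_at had 1155.9, 1233.7 and 1241.9 units, a change against wt of -0.15 (adjusted p = 0.202), and with S273A it had 1231.6, 1385.4 and 1278.6 units, a change of -0.05. The change of the modifier subunit with rosiglitazone had the opposite sign. Gclm had 224.4, 257.6 and 259.0 units with rosiglitazone, against 238.2, 199.0 and 222.7 in wt cells, a change of 0.16 (95% interval -0.06 to 0.38). Over all 12 arrays Gclm lay between 199 and 259 units. The adipocyte marker sum, which is mostly Fabp4, was higher in every rosiglitazone array than in every wt array, as given above. The part of these markers in the Gclc result was not tested.

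Glutathione reductase, encoded by Gsr, returns oxidised glutathione to its reduced form with NADPH. On its brighter probe set, 1421816_at, Gsr had 1713.2, 1652.6 and 1699.5 units with MRL24, against 1404.9, 1106.8 and 1372.2 in wt cells. The MRL24 arrays lay close together and above all wt arrays. Gsr rose with MRL24 by a log2 change of 0.39 (SE 0.09, 95% interval 0.20 to 0.57, adjusted p = 0.0229 by limma). Without the array that stood apart, wt replicate 2, which was the lowest, the change was 0.28 and the adjusted p was 0.0845. It was also not called without any single MRL24 array (adjusted p = 0.0684 to 0.0860), and the call was kept in 15 of 23 alternatives. The other Gsr probe set, 1421817_at, had 1103 ± 14.8 units with MRL24 and 1066 ± 31.5 in wt cells (SD, n = 3 each), a change of 0.05 with an adjusted p of 0.686, so the 2 probe sets of this gene disagreed.

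With rosiglitazone the brighter Gsr set had 1497.6, 1607.6 and 1373.1 units, which overlapped the wt arrays, and its change of 0.21 had an adjusted p of 0.171. In S273A cells it had 1214.8, 1309.3 and 1075.7 units, a change of -0.10 (95% interval -0.29 to 0.08). Gsta4, a glutathione transferase that acts on the lipid peroxidation product 4-hydroxynonenal, was the dimmest member. Its arrays ranged from 93.2 to 157.7 units, and the largest of its changes against wt was 0.10 with MRL24 (95% interval -0.26 to 0.46).

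Txnrd1 encodes cytosolic thioredoxin reductase, which recharges thioredoxin with NADPH. Its brightest probe set had 3093.8, 3013.3 and 2923.7 units in S273A cells, against 3386.8, 3523.6 and 3173.4 in wt cells. All S273A arrays were below all wt arrays, yet the change of -0.16 (95% interval -0.26 to -0.06) had an adjusted p of 0.0575 and was not called. It was called with the stricter filter (adjusted p = 0.0471) and without wt replicate 3 (-0.20, adjusted p = 0.0253). The other Txnrd1 probe sets, 1424486_a_at and 1424487_x_at, gave -0.08 and -0.10. With MRL24, Txnrd1 had 3317.0, 3305.4 and 3351.5 units, within the wt range, and with rosiglitazone 3308.6, 3157.8 and 3070.4.

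Sulfiredoxin, encoded by Srxn1, repairs peroxiredoxins whose active cysteine has been overoxidised, and its window with AP-1 letters is printed above. Srxn1 has 4 probe sets, and 3 of them had higher means with rosiglitazone than in wt cells. The set 1451680_at had 1387.6, 1552.6 and 1426.4 units with rosiglitazone, against 1262.0, 1218.2 and 1246.8 in wt cells, without overlap. Its log2 change of 0.22 had an adjusted p of 0.0243, which was 0.0834 with the 2 groups fitted alone, 0.0558 without wt replicate 2 and 0.135 without rosiglitazone replicate 2. The set 1425351_at changed by 0.21 (adjusted p = 0.0621), the brightest set 1426875_s_at by 0.11 (adjusted p = 0.251) and the dimmest, 1419942_at, by -0.02.

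In S273A cells the brightest Srxn1 set was below wt in all arrays, with 1653.9, 1583.1 and 1620.8 units against 1841.4, 1680.3 and 1814.1. Its change was -0.13 (adjusted p = 0.180 over genes), while 1451680_at gave 0.05. The probe sets of Srxn1 thus differed in sign for S273A.

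The superoxide dismutase gene Sod2 had lower means than in wt cells on its 2 brighter probe sets in all 3 comparisons. The set 1448610_a_at had 1404.0, 1250.1 and 1211.8 units in S273A cells, against 1522.7, 1587.0 and 1503.5 in wt cells. The groups did not overlap, and the change was -0.25 (SE 0.07, adjusted p = 0.0349). That call was kept in 12 of 22 alternatives. It was lost when any wt array, S273A replicate 2 or 3, or MRL24 replicate 2 was left out, with adjusted p-values of 0.0501 to 0.134. This set also had 1326.3, 1242.3 and 1398.5 units with rosiglitazone, a change of -0.22 (adjusted p = 0.0637), and 1436.5, 1294.2 and 1259.1 with MRL24, a change of -0.21 (adjusted p = 0.0724). The 3 comparisons share the wt arrays, which were the highest on this probe set.

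The brightest Sod2 set, 1417193_at, gave smaller changes of -0.17 with S273A, -0.16 with rosiglitazone and -0.09 with MRL24, none of them called. The dimmest, 1417194_at, went the other way, with 0.13, 0.14 and 0.28 in the same order and adjusted p-values of 0.532, 0.469 and 0.120. Its mean over the 12 arrays was 267 units, against 2404 for the brightest set.

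**Figure D2:**
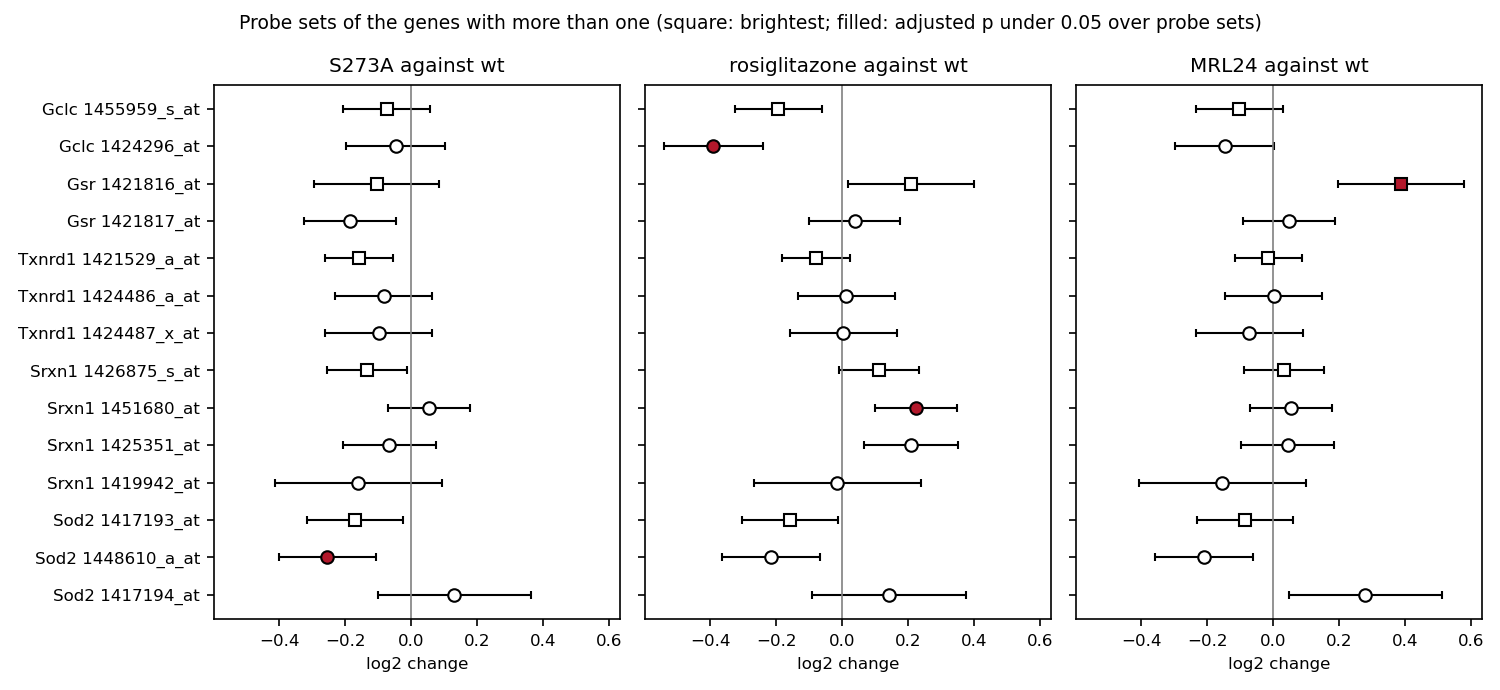
Log2 change against wt, with its 95% interval, of every probe set of the 5 genes that have more than 1, for S273A, rosiglitazone and MRL24. Squares are the brightest set of a gene and filled symbols have an adjusted p under 0.05; Gclc is left of 0 on both sets with rosiglitazone, while Gsr with MRL24 and Sod2 in every panel differ between their sets.

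Counted over genes, S273A called 1 of the 9 members, against 7.14% of all genes tested. With S273A 4 of the 9 had an unadjusted p under 0.05, against 20.8% of all genes. At the level of probe sets it called 2 of 18, Hmox1 upward and Sod2 downward, against 7.71% of all probe sets. For 4 members (Hmox1 above, Sod2, Srxn1 and Txnrd1 below) the S273A arrays did not overlap the wt arrays, and the same held for 22.6% of all genes. The members' median log2 change was -0.09 and their median absolute change 0.13, beside 0.00 and 0.09 for all genes.

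Rosiglitazone called 0 of the 9 members by limma, against 7.9% of all genes. Of these 9, 3 had an unadjusted p under 0.05, against 23.0% of all genes. On probe sets it called 2 of 18, Srxn1 upward and Gclc downward, against 9.24%. In 3 members, Srxn1 above and Gclc and Nqo1 below, the rosiglitazone and wt arrays did not overlap, which was so for 25.5% of all genes. MRL24 called 1 of the 9 members, Gsr, against 5.51% of genes, and 1 of 18 probe sets, against 8.44%. With MRL24 1 of the 9 had an unadjusted p under 0.05, against 24.5% of all genes. Gsr was also the 1 member whose MRL24 and wt arrays did not overlap, beside 29.1% of all genes. Over 9 genes, 1 call is close to the share of all genes called, so the counts of calls are not a result about the members as a group. The unadjusted counts were not tested against their shares. The members' median log2 changes were -0.08 with rosiglitazone and 0.02 with MRL24, beside 0.00 and 0.01 for all genes.

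**Figure D3:**
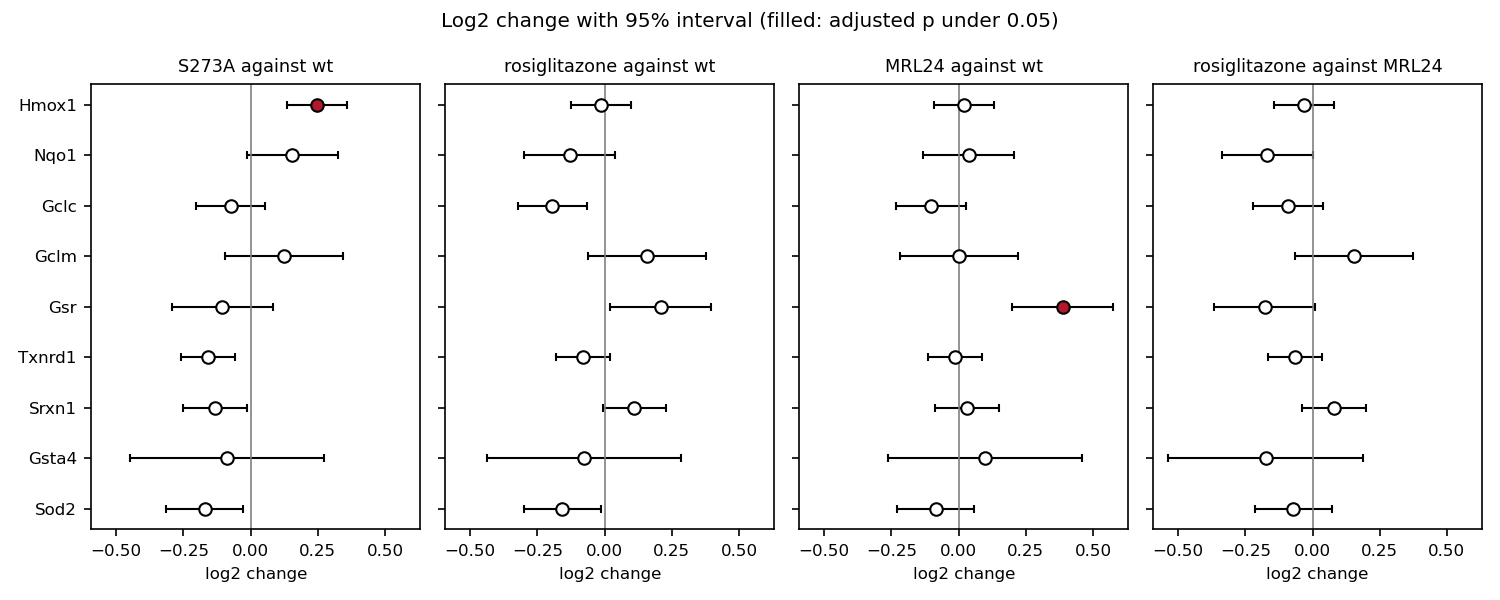
Log2 change with its 95% interval of the 9 genes (brightest probe set) in S273A against wt, rosiglitazone against wt, MRL24 against wt and rosiglitazone against MRL24. Filled points have an adjusted p under 0.05: Hmox1 with S273A at 0.25 and Gsr with MRL24 at 0.39.

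The ligands were compared directly at the same dose and time. Rosiglitazone and MRL24 differed in 0 of the 9 members, against 2.5% of all genes, and in 0 of 18 probe sets, against 2.25%. An unadjusted p under 0.05 was found in 0 members, against 14.9% of all genes. For Gsr and Nqo1 all rosiglitazone arrays lay below all MRL24 arrays, which held for 25.2% of all genes. Gsr differed by -0.18 (95% interval -0.37 to 0.01, adjusted p = 0.365) and Nqo1 by -0.17 (95% interval -0.34 to 0.00, adjusted p = 0.342). These intervals leave room for differences of more than 0.3 on the log2 scale, so the ligands were not shown to act alike on these genes. For Hmox1 the interval was narrower, -0.14 to 0.08. The Srxn1 probe sets 1451680_at and 1425351_at were higher with rosiglitazone than with MRL24 without overlap, by 0.17 and 0.16. Their adjusted p-values were 0.161 and 0.243 by limma. On the Srxn1 sets 1426875_s_at and 1419942_at the ligand arrays overlapped, with differences of 0.08 and 0.14. The Gclc probe set 1424296_at differed by -0.24 (95% interval -0.39 to -0.09, adjusted p = 0.0911). That difference was called in 3 of 22 alternatives. They were array weights (adjusted p = 0.0229), only the compared arrays (adjusted p = 0.0371) and the fit without wt replicate 2 (adjusted p = 0.0399).

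Among 9 measured regulators of the pathway, Mafg, a small MAF partner with which NRF2 binds DNA, rose with both ligands. Mafg had 1788.9, 1868.9 and 1840.2 units with rosiglitazone and 1848.9, 1710.6 and 1863.9 with MRL24, against 1484.4, 1164.4 and 1374.2 in wt cells. Every ligand array was above every wt array, with changes of 0.45 (adjusted p = 0.00085) and 0.43 (adjusted p = 0.0071). With the MRL24 and wt arrays fitted alone the adjusted p was 0.0507. The other Mafg probe set, 1448916_at, gave 0.00 and 0.08, and the response element letters of the Mafg window are printed above. Nfe2l2 itself fell with rosiglitazone, to 3827.8, 3936.4 and 3726.0 units, against 4369.5, 4640.9 and 4202.3 in wt cells, a change of -0.20 (adjusted p = 0.0142) that was kept in 20 of 23 alternatives. The adjusted p was 0.0653 without rosiglitazone replicate 3, 0.0628 with only the compared arrays and 0.0531 without a trend in the variance prior. With MRL24 its change was -0.14 (adjusted p = 0.0812) and with S273A -0.02 (adjusted p = 0.836).

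Keap1, the inhibitor of NRF2, was not called in any comparison by limma, with changes of -0.31 for S273A (adjusted p = 0.0598), -0.29 for rosiglitazone (adjusted p = 0.0676) and -0.27 for MRL24 (adjusted p = 0.0966). These changes share the wt arrays. The other Keap1 probe set, 1450747_at, averaged 244.4 units in S273A cells, 299.6 with rosiglitazone and 272.8 with MRL24, against 292.3 in wt cells. With rosiglitazone the Keap1 probe sets thus differed in direction. Bach1, the repressor, was called lower with S273A, at 966 ± 42.6 units in S273A cells and 1160 ± 135 in wt cells (-0.26, adjusted p = 0.0411). Its other probe set, 1449311_at, had the opposite sign, at 651 ± 65.4 in S273A cells and 587 ± 1.9 in wt cells, and the call was kept in 6 of 23 alternatives. In all, 0 of the 9 regulators rose and 1 fell with S273A, 1 rose and 1 fell with rosiglitazone, and 1 rose and 0 fell with MRL24. For this and the later lists, the shares of all genes called were 7.14% with S273A, 7.9% with rosiglitazone and 5.51% with MRL24. The shares under an unadjusted p of 0.05 were 20.8%, 23.0% and 24.5%. Of the 9 regulators, 3, 5 and 4 were under it in the same order. Rosiglitazone against MRL24 called 0 of the 9 by limma, with 0 under an unadjusted p of 0.05.

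**Figure D4:**
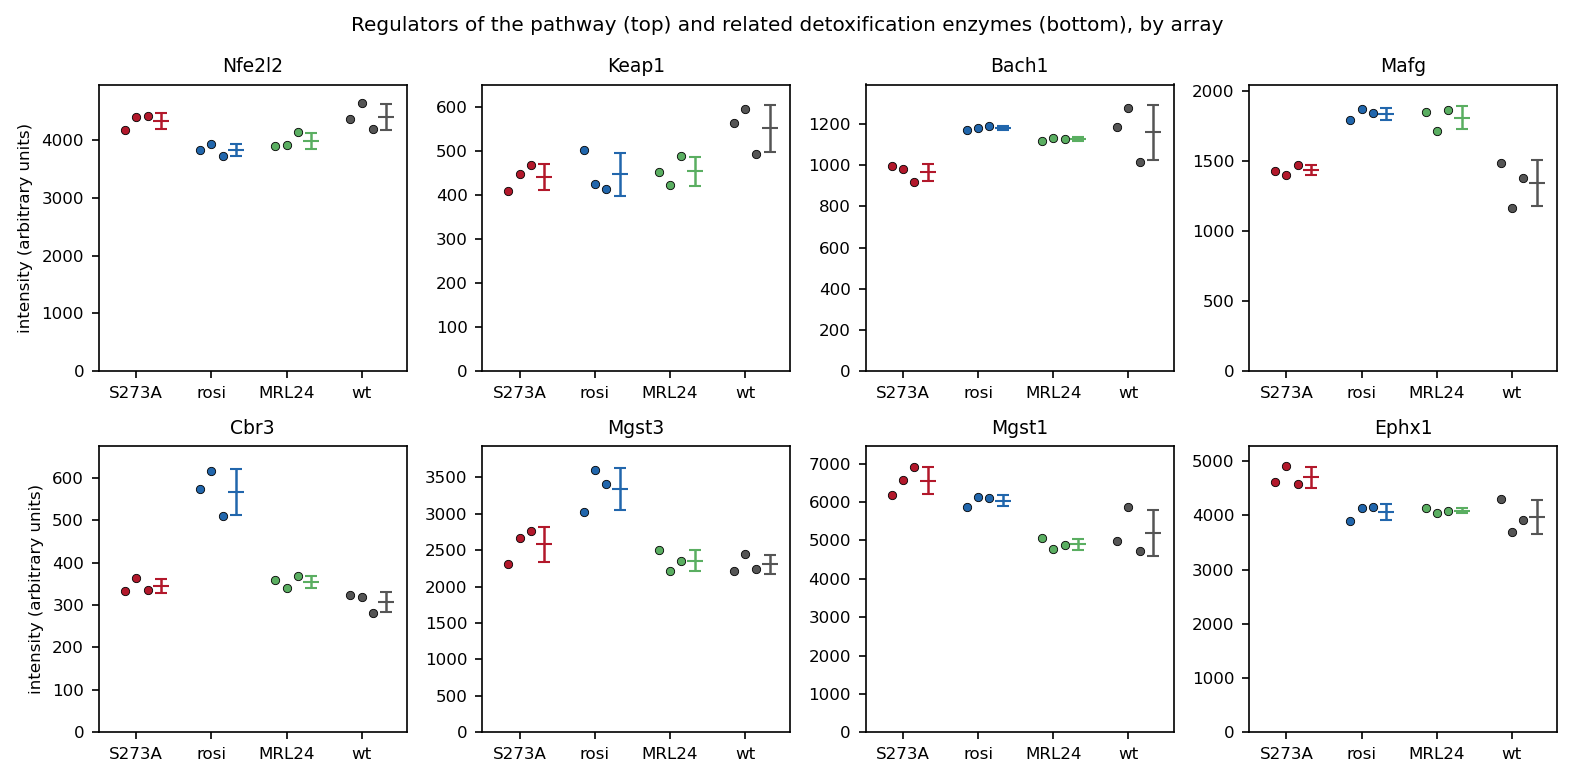
Intensity (arbitrary units, axis from 0) by array of the regulators Nfe2l2, Keap1, Bach1 and Mafg and of the enzymes Cbr3, Mgst3, Mgst1 and Ephx1, with mean ± SD of 3 arrays for S273A, rosiglitazone (rosi), MRL24 and wt cells. Mafg lies above wt with both ligands, and Cbr3 and Mgst3 with rosiglitazone.

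Among other enzymes of detoxification, Cbr3 and Mgst3 had larger log2 changes than any member. Cbr3, a carbonyl reductase, rose with rosiglitazone to 573.1, 615.8 and 510.1 units, against 322.8, 318.5 and 281.3 in wt cells, a log2 change of 0.85 (adjusted p = 1.2e-05). It was also 0.65 higher with rosiglitazone than with MRL24 (adjusted p = 0.00046), and both calls held in 23 of 23 alternatives. Mgst3, a microsomal glutathione transferase, had 3339 ± 293 units with rosiglitazone, 2357 ± 146 with MRL24 and 2303 ± 131 in wt cells. Its change was 0.53 against wt and 0.50 against MRL24, and both calls were lost with the mean of all probe sets, which takes in a set at 20.9 units. Of 8 measured quinone, carbonyl and xenobiotic enzymes, rosiglitazone raised 1 and lowered 1 (Ptgr1, -0.25).

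Of 18 other transferases and conjugation genes, rosiglitazone raised 2 (Mgst3, and Mgst1 by 0.22) and lowered 2, Gstm1 with a log2 change of -0.29 and Abcc1 with -0.22. The Mgst1 call was kept in 8 of 23 alternatives, that of Gstm1 in 23 and that of Abcc1 in 19. For Mgst1 the rosiglitazone and wt arrays overlapped. The Gstm1 set 1425626_at had a higher mean with rosiglitazone than in wt cells (1050 ± 222 against 945 ± 119 units). The Gstm1 sets 1416416_x_at and 1425627_x_at had lower means with rosiglitazone. The other Abcc1 probe set had the opposite sign (0.10), and the mean of both sets gave -0.06 (adjusted p = 0.448). MRL24 lowered 1 of these 18, Gstm5 (-0.30), a call kept in 17 of 23 alternatives and lost without wt replicate 2 or any single MRL24 array (adjusted p = 0.0513 to 0.0905). In S273A cells 1 of the 18 rose, Mgst1, with 6187.6, 6586.5 and 6909.3 units against 4986.1, 5868.0 and 4720.3 in wt cells (0.34, adjusted p = 0.0036), and 16 of the 18 changes were positive, with a median of 0.10 beside 0.00 for all genes. Among the quinone and xenobiotic enzymes, 1 of 8 rose with S273A, the microsomal epoxide hydrolase Ephx1 (0.25, adjusted p = 0.0094, 0.0518 without S273A replicate 2 and 0.0741 with only the compared arrays). With MRL24, 1 of 8 rose, Ugdh (0.16), a call kept in 15 of 23 alternatives.

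Of 16 other glutathione genes, S273A raised Glrx, a glutaredoxin (0.15), and lowered Ggct (-0.33), and rosiglitazone lowered Glrx (-0.13). MRL24 called 0 of the 16 by limma, with 5 under an unadjusted p of 0.05, against 24.5% of all genes. The 2 Glrx calls were kept in 13 and 9 of 23 alternatives and that of Ggct in 16. The other Ggct probe set gave 0.01, and the mean of both sets -0.16 (adjusted p = 0.326). Of 13 other thioredoxin and peroxiredoxin genes, Txnip, whose product binds and inhibits thioredoxin, rose in all 3 comparisons. It had 8317 ± 296 units in S273A cells, 7862 ± 184 with rosiglitazone and 7526 ± 107 with MRL24, against 5930 ± 94.0 in wt cells (SD, n = 3 each). Txn1, thioredoxin itself, fell by 0.14 on the log2 scale with rosiglitazone and by 0.15 with MRL24. The Txnip calls were kept in 23 of 23 alternatives and those of Txn1 in 12. These comparisons share the wt arrays.

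Of 9 genes that supply NADPH, S273A raised Taldo1, a pentose phosphate enzyme, by 0.27. Rosiglitazone and MRL24 called 0 of these 9 by limma. Of the 9, 2 and 1 were under an unadjusted p of 0.05, against 23.0% and 24.5% of all genes. Of 9 other genes of heme breakdown and iron, S273A called 0 by limma, with 0 under an unadjusted p of 0.05. Rosiglitazone raised Blvra, a biliverdin reductase (0.23), and lowered the transferrin receptor Tfrc (-0.37), and MRL24 lowered Tfrc (-0.20). Under an unadjusted p of 0.05 were 7 of these 9 with rosiglitazone and 2 with MRL24, against 23.0% and 24.5% of all genes. The Tfrc call was kept in 22 of 23 alternatives with rosiglitazone and in 8 with MRL24, and that of Blvra in 10. The other Tfrc probe sets, 1422966_a_at and 1422967_a_at, had higher means with either ligand. They had 1008 and 277 units with rosiglitazone and 1158 and 304 with MRL24, against 981 and 271 in wt cells. With the mean of all its probe sets, the Tfrc change with rosiglitazone was -0.09 (adjusted p = 0.504 by limma). Of 7 other genes of superoxide, peroxide and metal handling, S273A lowered Mt2, a metallothionein (-0.16), and MRL24 lowered Park7 (-0.23, kept in 8 of 23 alternatives). Rosiglitazone called 0 of the 7 by limma, with 3 under an unadjusted p of 0.05, against 23.0% of all genes. Cybb, the catalytic subunit of the phagocyte NADPH oxidase, was 1 of 3 measured subunits. It had 126 ± 6.1 units in S273A cells, 111 ± 27.8 with rosiglitazone and 152 ± 15.3 with MRL24, against 71.1 ± 9.7 in wt cells (SD, n = 3 each). Every wt array of Cybb, from 62.0 to 81.3 units, was below the intensity minimum. The gene passed that minimum only through the other groups, so neither a call nor a size of change is given for it.

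Sod2 is also a target of NF-κB, and of 16 NF-κB and acute phase genes S273A raised 1 and lowered 3, rosiglitazone lowered 4 and MRL24 lowered 3. The shares of all genes called were 7.14%, 7.9% and 5.51% in the same order. The chemokines Ccl2 and Cxcl5 and the serum amyloid Saa3 were among the fallen genes in all 3 comparisons, which share the wt arrays. Cxcl5 changed by -0.59 with S273A, -0.92 with rosiglitazone and -0.34 with MRL24, the last a call kept in 9 of 23 alternatives. The gene raised with S273A was Cxcl1 (0.19), a call kept in 14 of 23. Hmox1 and Srxn1 can also respond to stress outside NRF2, and of 13 genes of the ATF4 response S273A raised Atf3 (0.40), Atf4 (0.19) and Ddit4 (0.19) and lowered Psat1 (-0.17). Of all genes, S273A called 7.14%. The part of either list in the member results was not tested. The Atf3 call was kept in 23 of 23 alternatives, those of Atf4, Psat1 and Ddit4 in 19, 16 and 9. Rosiglitazone lowered 1 of these 13, Ddit3 (-0.29), and MRL24 lowered 1, Vldlr (-0.17, kept in 14 of 23). None of 4 FOXO and PGC-1 related genes was called in the 3 comparisons with wt by limma. Under an unadjusted p of 0.05 were 1, 0 and 3 in S273A, rosiglitazone and MRL24. The shares of all genes were 20.8%, 23.0% and 24.5% in that order.

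The genes whose course over the 12 arrays was most like that of a called member were found by the root mean square difference of centred log2 values. For Hmox1 they were Ephx1, at 0.04, Psmd8, a proteasome subunit, at 0.05 and Chpt1 at 0.05, where the median over all genes was 0.17. For Gsr they were Ywhaz, at 0.04, Ggcx at 0.08 and Rasal1 at 0.08, where the median was 0.24. These values describe a likeness over 12 arrays and were not tested.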

How the data were processed

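Biotin-labelled RNA was measured on 12 Affymetrix arrays, 3 in each of 4 groups taken from the sample titles. The authors deposited linear intensity values, already normalized; their method is not given in sources used here. Arrays give no counting depth, and their number limits the precision.

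Of 22690 probe sets, 64 were controls, 20380 carried 1 symbol, 691 several, and 1555 are unnamed here; no symbol changed on lookup of 20364 by Entrez ID. Genes were represented by their brightest probe set and kept at or above the 30th percentile of probe set means. Log2(intensity + 16) was fitted over all 12 arrays with limma 3.58.1 in R 4.3.3 (lmFit, eBayes with trend, 8 residual degrees of freedom), separately over 9154 genes and 15838 probe sets. An exact test of 3 against 3 arrays cannot go below p = 0.1. On simulated S273A data for 9154 genes, 11, 24, 39 and 50 of 50 changed genes were recovered at log2 changes of 0.2, 0.3, 0.5 and 1.

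Changes of dim genes are understated on this scale. Named genes were the members, regulators, up to 4 called genes of each pathway list, and the 3 genes most like each called member; fewer are described. Members and lists were chosen with earlier results of these data known. There were 11 alternatives and 12 fits without an array; those for single probe sets and list genes were added after seeing the data.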

Additional observations from a re-analysis of the deposited data

How the results depend on the processing

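Counts of changed genes moved by over 1.5 times in several settings. With only the arrays of the groups compared, S273A called 237 genes, rosiglitazone 362 and MRL24 51, and rosiglitazone differed from MRL24 in 547, against 654, 723, 504 and 229 with all arrays. Without a trend in the variance prior MRL24 called 167 and the ligands differed in 132; without a filter MRL24 called 226; with array weights the ligands differed in 640. With 1 array left out, S273A called 391 to 633 genes, rosiglitazone 383 to 764 and MRL24 64 to 805, and the ligands differed in 97 to 480. Scaling to a common median moved the MRL24 split of 294 higher and 210 lower genes to 205 and 475, quantile normalization to 254 and 319; for the ligand difference, 129 and 100 became 150 and 65, or 162 and 106; these shifted the median of all genes by at most 0.04.

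The members called with S273A were 2 with the stricter filter, 0 with only the compared arrays, and 0 to 2 with 1 array left out. With rosiglitazone there was 1, Gclc, under the stricter filter, median scaling and the mean of probe sets, and 0 to 1 with 1 array left out. With MRL24 there were 0 without a filter, with the mean of probe sets, with only the compared arrays and without a trend, and 0 to 1 with 1 array left out. The ligands differed in 0 members by limma in every setting. With the mean of all probe sets, Mgst1 changed sign with S273A (-0.038) and Tfrc with MRL24 (0.075). The cause of these changes was not tested.

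Same-numbered arrays correlated at -0.09 to 0.13 in their deviations, so no strong pairing by number was seen. The labels do not say whether same-numbered arrays belong together. With the replicate number as a block, 540, 610, 349 and 175 genes were called in the order above, and 1, 0, 1 and 0 members.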
